A study of Mus musculus with 18 samples.

Results

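The comparison described here is the difference in DSS change between CD103+CD11b- and CD103-CD11b+ cells of the mouse colon. For each gene, the log2 change from untreated to DSS-treated mice in CD103-CD11b+ cells was subtracted from the same change in CD103+CD11b- cells, and the result is called the interaction. The question is whether these subsets grow more alike in colitis. The members are 12 of the 18 arrays in all, chosen by the subset and treatment in their titles. They form 4 groups of 3 arrays: untreated CD103+CD11b-, DSS CD103+CD11b-, untreated CD103-CD11b+ and DSS CD103-CD11b+ cells.

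All mice were of the BALB/c strain and 8 weeks old, and the labels give no transgene, deleted gene or other agent. DSS mice received 2% dextran sulfate sodium, a sulfated polysaccharide that damages the lining of the colon and so brings on colitis. A title without the word DSS was read as untreated. Collagenase released the lamina propria cells, which were gated for MHC and high CD11c and then sorted by CD103 and CD11b. The sex of the mice, the days on DSS and the number of animals behind an array are not given in the sources used here, so each p-value rests on array-to-array spread, which may be technical. Experiments 1 to 3 were untreated and experiments 4 to 6 were DSS, and each gave 1 array of every subset. Experiment and DSS therefore cannot be told apart in a DSS change. A shift that both subsets of an experiment share drops out of the interaction.

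Conventional dendritic cells carry antigen from the gut wall to lymph nodes and occur as type 1 (cDC1) and type 2 (cDC2) cells. Type 1 cells depend on the transcription factors IRF8 and BATF3, take up dead cells and present their antigen on MHC class I, and in the gut they carry CD103 without CD11b. CD11b-positive cells of the colon with high MHC and CD11c include cDC2 and cells related to macrophages, which in this tissue arise from blood monocytes. CD103 is the alpha chain of an integrin that binds E-cadherin, and CD11b is the alpha chain of an integrin that binds complement fragments.

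Expression levels are log2 values, on which a difference of 1 is 2-fold. As means over a list, markers of the labelled cells stood as the sort would place them. The genes of the sort proteins CD103 and CD11b are themselves on the cDC1 and cDC2 lists. The 20 tested genes of the cDC1 programme had array means of 8.07 to 8.23 in untreated CD103+CD11b- cells and 6.32 to 6.42 in untreated CD103-CD11b+ cells. The 20 genes of the cDC2 programme had array means of 5.59 to 5.74 and 6.91 to 7.07, and the 23 macrophage genes 6.49 to 6.67 and 7.72 to 8.24, in the same order. The difference between the subsets passed the test (limma, Benjamini-Hochberg adjusted p under 0.05 over all genes, two-sided) for 1447 of 14003 genes in untreated cells (10.3%) and for 1195 after DSS (8.53%). Of these, 884 passed in both conditions, all in the same direction, which is 61.1% of the untreated calls and 74% of the DSS calls. In untreated cells 19 cDC1 genes passed as higher and 0 as lower in CD103+CD11b- cells. For the cDC2 genes it was 2 and 13, and for the macrophage genes 1 and 15.

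No gene passed the test for the interaction: 0 of 14003 genes (0%) had an adjusted p under 0.05, and the lowest was 0.316 for Pdia5. At an unadjusted p under 0.05 there were 510 genes (3.64%), 243 with a higher and 267 with a lower DSS change in CD103+CD11b- cells. The median standard error of an interaction was 0.235 with 3 arrays a group, and the median 95% confidence interval, for 1 gene without adjustment, reached 0.493 to either side. Some interactions above 1, such as those of Pdia5 and B3galt4, did not pass the adjusted test. Gene by gene, the data do not show that DSS acted unequally on the subsets. What they show at the level of many genes is that the differences of greatest size between the subsets were, in most of those genes, smaller after DSS.

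That pattern was read by the average of the untreated and the DSS difference. In this balanced design the average is independent of the interaction where all groups vary equally. Arrays of the same group were 0.335 to 0.439 apart untreated and 0.31 to 0.351 apart after DSS (root mean square over all genes), so that condition was not met in full, and a choice by the average then leans toward genes with a larger untreated difference. The average passed the test for 2305 genes (16.5%), of which 1351 (58.6%) had a smaller difference after DSS, beside 52.8% of all 14003 genes. The share was 56.9% of the 1852 called genes with an average difference under 1, 61.1% of the 373 genes between 1 and 2, and 87.5% of the 80 genes at 2 or more. Of those 80 genes, 70 lay closer together after DSS and 10 did not. Chosen by the DSS difference alone, a choice that favours larger differences after DSS, 34 of 48 genes (70.8%) lay closer together after DSS. Among the 80 genes an unadjusted p under 0.05 was reached by 31 of the 70 and by 0 of the 10, and with the experiment number as a replicate block by 36 and by 2. In 33 genes all 3 DSS experiments had a smaller difference than all 3 untreated experiments and in 2 genes all 3 had a larger one, together 43.8%, beside 9.27% of all genes without overlap in either direction. These genes were measured on the same arrays and their counts are not independent. The limit of 2 was set after the values were seen.

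**Figure D1:**
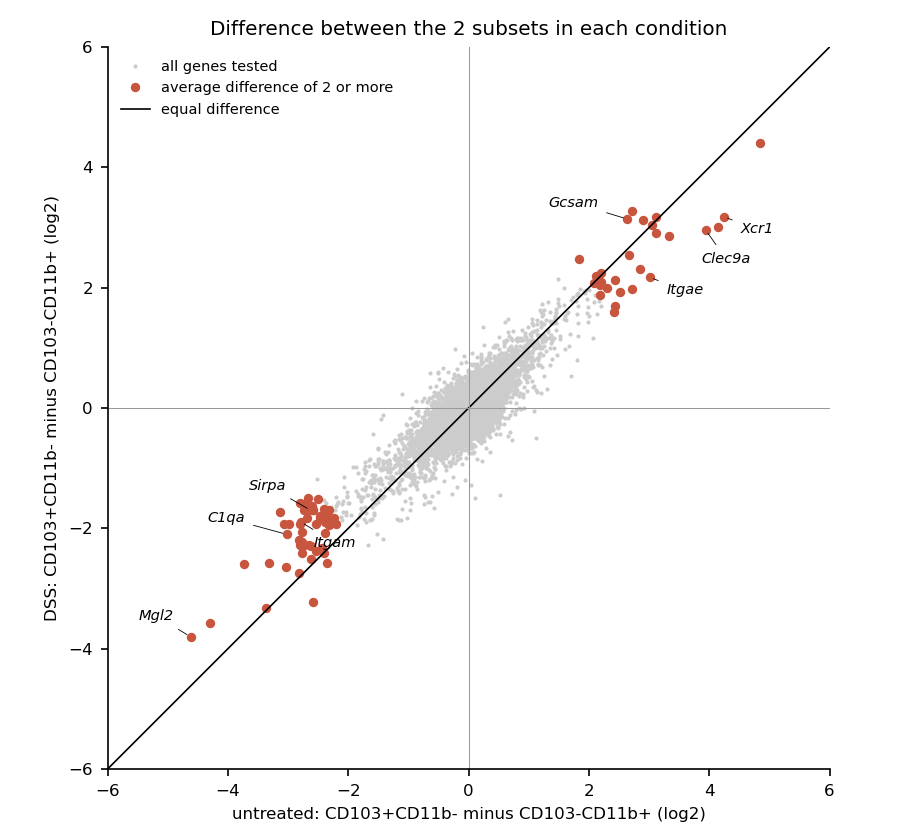
Difference between CD103+CD11b- and CD103-CD11b+ cells (log2) in untreated mice (horizontal) and after DSS (vertical), 1 point per gene, with the 80 genes of an average difference of 2 or more in red. The red points lie mostly between the line of equal difference and the horizontal axis, 70 of 80 having a smaller difference after DSS, and Gcsam lies on the other side of the line.

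The smaller difference came about differently for genes on either side. Of the 80 genes, 53 were lower in CD103+CD11b- cells. Their mean level in untreated CD103+CD11b- cells was 5.49, 5.67 and 5.34 in experiments 1 to 3, and after DSS it was 6.07, 6.10 and 6.10 in experiments 4 to 6. Their mean in CD103-CD11b+ cells was 8.15, 8.51 and 8.00 untreated and 8.37, 8.03 and 8.22 after DSS. The CD103+CD11b- arrays did not overlap between conditions, and the CD103-CD11b+ arrays did. Of the 53 genes, 50 had a higher mean after DSS in CD103+CD11b- cells, beside 54.4% of all 14003 genes, and 5 passed the test there. Their median change was 0.49 in CD103+CD11b- cells and -0.05 in CD103-CD11b+ cells. The median difference between the subsets was -2.62 untreated and -1.93 after DSS, and 50 of the 53 genes lay closer together.

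The other 27 genes were higher in CD103+CD11b- cells. Their mean level there was 7.90, 7.85 and 7.91 untreated and 8.12, 7.93 and 7.77 after DSS. In CD103-CD11b+ cells it was 5.14, 5.00 and 5.07 untreated and 5.45, 5.40 and 5.37 after DSS. Here the CD103-CD11b+ arrays did not overlap between conditions, and the CD103+CD11b- arrays did. The median difference was 2.67 untreated and 2.31 after DSS, the median DSS change was 0.33 in CD103-CD11b+ cells and -0.02 in CD103+CD11b- cells, and 20 of the 27 genes lay closer together. Of the 27 genes, 19 had a higher mean after DSS in CD103-CD11b+ cells, beside 56.1% of all genes, and 2 passed the test there. On both sides, then, it was the subset with the low level whose mean over the set was higher after DSS, though few single genes passed. In sorted bulk RNA, more cells of another kind within the gate and more RNA of these genes per cell cannot be told apart.

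**Figure D2:**
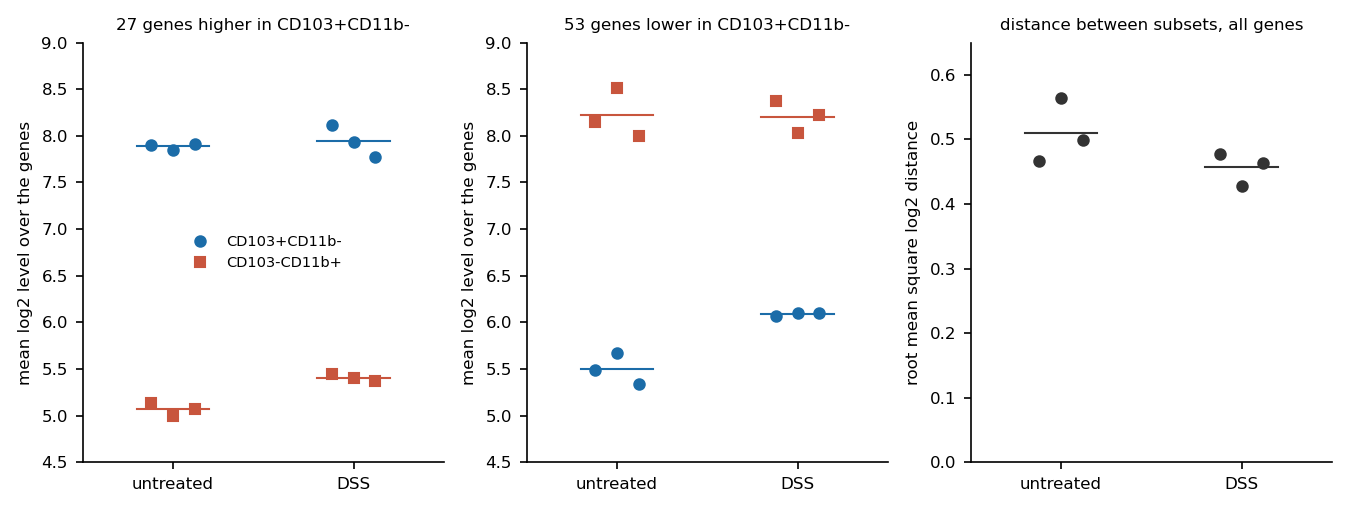
Left and middle, mean log2 level on each array over the 27 genes higher and the 53 genes lower in CD103+CD11b- cells by 2 or more (circles, CD103+CD11b-; squares, CD103-CD11b+; lines, means of 3 arrays). Right, root mean square log2 distance between the subsets over all genes tested, 1 point per experiment, 0.428 to 0.478 after DSS and 0.467 to 0.564 untreated.

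Over all 14003 genes the distance between the subsets did not differ beyond the spread of the experiments. The root mean square log2 distance between the arrays of an experiment was 0.467, 0.564 and 0.499 in the untreated experiments and 0.478, 0.428 and 0.464 in the DSS experiments. The means were 0.510 ± 0.049 and 0.457 ± 0.026 (SD, n = 3), a difference of -0.0533 with p = 0.2 in a two-sided exact permutation test whose smallest possible p is 0.1. The conditions overlapped, since experiment 1 had a smaller distance than experiment 4. Experiment 2 had the greatest distance, and the difference without it was -0.0265. The other pairs of subsets did not overlap between conditions. CD103+CD11b- and CD103+CD11b+ arrays were 0.451 to 0.482 apart untreated and 0.399 to 0.440 after DSS, and CD103+CD11b+ and CD103-CD11b+ arrays 0.395 to 0.467 and 0.315 to 0.373. The 3 pairs share arrays, and arrays of the same group were also less far apart after DSS. Over the 2305 genes called in the average difference, the mean difference per experiment in that direction was 0.776 ± 0.067 untreated and 0.714 ± 0.051 after DSS (SD). These did not differ beyond the spread of the experiments (p = 0.4 in the same permutation test). By side, p was 0.5 for genes higher and 0.2 for genes lower in CD103+CD11b- cells.

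Among single genes higher in CD103-CD11b+ cells, several encode receptors and adaptors of myeloid cells. Sirpa (probe set 10476021), the inhibitory receptor for CD47 that marks cDC2 and macrophages, measured 6.30, 6.82 and 6.36 in untreated CD103+CD11b- cells and 7.26, 7.41 and 7.31 after DSS. CD103-CD11b+ cells measured 9.15, 9.12 and 9.07 untreated and 9.06, 8.88 and 9.15 after DSS. All 3 DSS arrays of CD103+CD11b- cells lay above the 3 untreated ones, and the CD103-CD11b+ arrays overlapped. Sirpa rose by 0.83 ± 0.14 (SE) in CD103+CD11b- cells (adjusted p = 0.0215 in limma) and differed by -0.08 ± 0.14 in CD103-CD11b+ cells. Its interaction was 0.91 ± 0.20 (95% interval 0.49 to 1.34, unadjusted p = 0.000247), and the difference between the subsets was -2.62 untreated and -1.70 after DSS. The rise did not pass without CD103+CD11b- replicate 1, 3, 4, 5 or 6 (adjusted p up to 0.13).

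Lst1 (probe set 10450496), a small transmembrane adaptor of leukocytes, had a like pattern. It measured 5.65, 5.70 and 5.87 in untreated CD103+CD11b- cells and 6.53, 6.54 and 6.58 after DSS, without overlap. In CD103-CD11b+ cells it measured 8.31, 8.67 and 8.31 untreated and 8.29, 8.34 and 8.48 after DSS, with overlap. It rose by 0.81 ± 0.15 in CD103+CD11b- cells (adjusted p = 0.0407), with an interaction of 0.87 ± 0.22 (unadjusted p = 0.000755). The rise did not pass in 11 of 20 other settings, 10 of which leave out 1 array (adjusted p up to 0.221).

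Receptors for the constant part of antibodies and their signalling chain were among these genes. Fcgr3 (probe set 10360040), a low-affinity activating receptor for IgG, measured 6.15, 5.93 and 6.28 in untreated CD103+CD11b- cells and 6.98, 7.20 and 6.68 after DSS. CD103-CD11b+ cells measured 8.37, 8.42 and 8.16 untreated and 8.66, 8.25 and 8.37 after DSS. It rose in CD103+CD11b- cells by 0.83 ± 0.15 (adjusted p = 0.028), and its interaction was 0.72 ± 0.21 (unadjusted p = 0.00297). That rise did not pass in 6 of 20 other settings (adjusted p up to 0.192). Fcer1g (probe set 10360070), the signalling chain that Fc receptors and several lectins share, measured 8.89, 8.98 and 8.95 in untreated CD103+CD11b- cells and 9.38, 9.49 and 9.46 after DSS. Its CD103-CD11b+ arrays ran from 10.38 to 10.61 untreated and from 10.33 to 10.49 after DSS. The interaction of Fcer1g was 0.58 ± 0.15 (unadjusted p = 0.00135), and its DSS change in CD103+CD11b- cells, 0.50, did not pass the test (adjusted p = 0.122).

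The C1q genes encode the chains of the first component of the classical complement pathway and are made by tissue macrophages. C1qa (probe set 10517517) measured 9.51, 9.96 and 9.16 in untreated CD103-CD11b+ cells and 9.04, 8.89 and 8.92 after DSS. In CD103+CD11b- cells it measured 6.57, 6.57 and 6.43 untreated and 6.97, 6.73 and 6.86 after DSS. Neither subset overlapped between conditions, and the DSS values lay toward each other: the change was 0.33 in CD103+CD11b- and -0.59 in CD103-CD11b+ cells, neither past the test, with an interaction of 0.92 ± 0.25 (unadjusted p = 0.0015). C1qb had a difference between the subsets of -2.73 untreated and -1.70 after DSS, and C1qc one of -2.47 and -1.82. Dmxl2, a protein of the machinery that acidifies vesicles, had a difference of -2.61 untreated and -1.62 after DSS (interaction 0.99 ± 0.26, unadjusted p = 0.00128), with changes of 0.46 and -0.53.

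The gene of the sort marker CD11b was among them. Itgam (probe set 10557862) measured 5.70, 5.02 and 4.70 in untreated CD103+CD11b- cells and 6.12, 6.13 and 6.13 after DSS, against 7.99, 8.13 and 7.68 untreated and 8.17, 7.74 and 8.13 after DSS in CD103-CD11b+ cells. The difference was -2.79 untreated and -1.89 after DSS, with an interaction of 0.90 ± 0.29 (unadjusted p = 0.00557), and the change of 0.99 in CD103+CD11b- cells did not pass the test (adjusted p = 0.084). Itgax, which encodes CD11c, had an interaction of 0.04 ± 0.23.

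On the opposite side stood genes of cDC1. Itgae (probe set 10378286), which encodes CD103, measured 6.45, 6.24 and 6.37 in untreated CD103-CD11b+ cells and 7.32, 7.65 and 7.33 after DSS. In CD103+CD11b- cells it measured 9.38, 9.27 and 9.45 untreated and 9.59, 9.58 and 9.66 after DSS. The DSS arrays lay above the untreated ones in both subsets, by more in CD103-CD11b+ cells. Itgae rose by 1.08 ± 0.13 in CD103-CD11b+ cells (adjusted p = 0.00103) and differed by 0.24 ± 0.13 in CD103+CD11b- cells. The interaction was -0.84 ± 0.19 (95% interval -1.24 to -0.45, unadjusted p = 0.000265), and the difference between the subsets was 3.01 untreated and 2.17 after DSS, although CD103-CD11b+ cells were sorted as lacking the protein.

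Xcr1 (probe set 10597996), which encodes the XCL1 receptor and is a defining marker of cDC1, measured 5.63, 5.21 and 5.30 in untreated CD103-CD11b+ cells and 5.93, 6.57 and 6.4 after DSS. In CD103+CD11b- cells it measured 9.53, 9.76 and 9.58 untreated and 9.46, 9.42 and 9.55 after DSS. Its difference was 4.24 untreated and 3.18 after DSS (interaction -1.06 ± 0.30, unadjusted p = 0.00198). Clec9a (probe set 10542181), which senses actin filaments of damaged cells, measured 3.77, 3.30 and 4.74 in untreated CD103-CD11b+ cells and 5.13, 5.18 and 5.69 after DSS, against 7.65 to 8.05 and 8.16 to 8.4 in CD103+CD11b- cells. Clec9a rose by 1.4 ± 0.26 in CD103-CD11b+ cells (adjusted p = 0.0451), and its interaction was -0.98 ± 0.37 (unadjusted p = 0.0168). The rise of Clec9a did not pass in 13 of 20 other settings (adjusted p up to 0.208). In both genes the CD103-CD11b+ arrays did not overlap between conditions, but the change of Xcr1 there, 0.92 ± 0.21, did not pass the test (adjusted p = 0.121). The untreated Clec9a value of 3.30 lay below 3.51, the level set by the filter on low values.

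**Figure D3:**
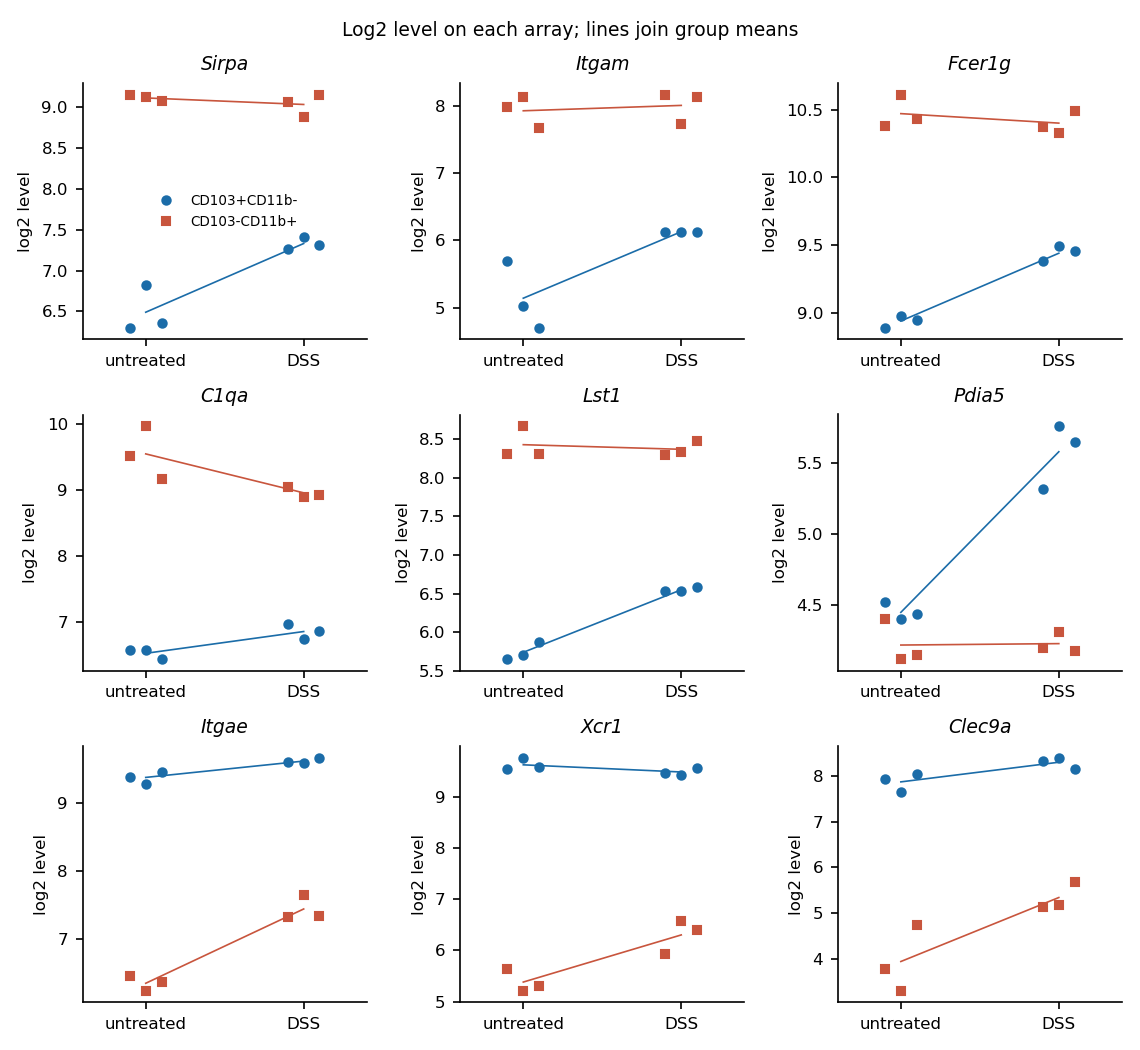
Log2 level of 9 genes on each of the 12 arrays (circles, CD103+CD11b-; squares, CD103-CD11b+), with lines joining the means of 3 arrays; the vertical axis differs between panels and does not start at 0. Sirpa, Itgam, Fcer1g, Lst1 and Pdia5 are higher after DSS in CD103+CD11b- cells, and Itgae, Xcr1 and Clec9a in CD103-CD11b+ cells.

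Sequence upstream of the gene start is shown for genes of both sides, so that members with like values can be compared. Of 8 genes looked for, 5 had an entry in the RefSeq promoter table (build GRCm38.p6). The 250 bases before the start were searched on both strands for GAGGAA, the core bound by the myeloid transcription factor PU.1, for TGANTCA, the site of AP-1, and for the site of interferon regulatory factors (GAAA, 2 bases of any kind and GAAA). Capitals mark a match. On the side higher in CD103-CD11b+ cells these are C1qb at chr4:136886201-136886450 (minus strand), Fcgr3 at chr1:171059404-171059653 (minus strand, the first of its 2 listed starts) and Fcer1g at chr1:171234350-171234599 (minus strand). On the side of cDC1 they are Xcr1 at chr9:123862030-123862279 (minus strand) and Clec9a at chr6:129408612-129408861 (plus strand).
C1qb: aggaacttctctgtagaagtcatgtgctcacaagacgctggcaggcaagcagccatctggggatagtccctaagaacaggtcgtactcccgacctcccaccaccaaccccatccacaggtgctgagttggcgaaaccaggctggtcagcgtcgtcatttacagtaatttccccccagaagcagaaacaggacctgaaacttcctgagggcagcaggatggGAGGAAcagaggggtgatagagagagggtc
Fcgr3: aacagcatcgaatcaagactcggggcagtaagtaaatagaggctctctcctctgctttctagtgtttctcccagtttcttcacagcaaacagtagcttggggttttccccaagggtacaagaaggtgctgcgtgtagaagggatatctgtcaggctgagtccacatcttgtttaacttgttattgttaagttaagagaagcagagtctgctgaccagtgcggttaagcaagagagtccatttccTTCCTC
Fcer1g: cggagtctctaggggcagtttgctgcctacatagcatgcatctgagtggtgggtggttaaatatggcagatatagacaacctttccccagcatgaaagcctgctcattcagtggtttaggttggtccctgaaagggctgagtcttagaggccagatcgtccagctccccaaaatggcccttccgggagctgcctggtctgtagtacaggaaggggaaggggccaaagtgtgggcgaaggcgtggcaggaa
Xcr1: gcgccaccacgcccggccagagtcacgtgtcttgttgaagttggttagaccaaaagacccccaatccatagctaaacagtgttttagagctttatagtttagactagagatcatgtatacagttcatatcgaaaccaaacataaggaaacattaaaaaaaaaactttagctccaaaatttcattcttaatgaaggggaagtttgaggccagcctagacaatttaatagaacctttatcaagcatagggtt
Clec9a: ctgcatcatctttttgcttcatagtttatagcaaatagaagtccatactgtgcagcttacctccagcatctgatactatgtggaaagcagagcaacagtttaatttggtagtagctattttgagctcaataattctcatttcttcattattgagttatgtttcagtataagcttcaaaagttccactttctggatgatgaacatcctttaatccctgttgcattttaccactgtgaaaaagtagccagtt
The PU.1 core was found in C1qb, and in Fcgr3 as its reverse complement. Among all 32851 promoter entries of this length, 23.3% held it, 6.75% held the AP-1 letters and 2.98% the interferon regulatory factor letters, which matched none of the 5. A match is a description of letters only. The level of Spi1, which encodes PU.1, had a difference between the subsets of -0.49 untreated and -0.14 after DSS (interaction 0.36 ± 0.20, unadjusted p = 0.0906).

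The gene with the lowest interaction p was not a subset marker. Pdia5 (probe set 10439218), a disulfide isomerase of the endoplasmic reticulum, measured 4.52, 4.40 and 4.44 in untreated CD103+CD11b- cells and 5.32, 5.76 and 5.65 after DSS. In CD103-CD11b+ cells it measured 4.40, 4.12 and 4.15 untreated and 4.20, 4.31 and 4.18 after DSS. The untreated arrays of the subsets nearly met, and the DSS arrays stood apart. It rose by 1.13 ± 0.14 in CD103+CD11b- cells (adjusted p = 0.00106), differed by 0.01 ± 0.14 in CD103-CD11b+ cells, and had an interaction of 1.12 ± 0.20 (95% interval 0.70 to 1.53, unadjusted p = 2.26e-05). Its subset difference was 0.23 untreated and 1.35 after DSS, so the subsets were farther apart after DSS.

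Among other genes of low interaction p, B3galt4, a galactosyltransferase of glycolipid synthesis, stood on opposite sides: its difference was -0.64 untreated and 0.58 after DSS (interaction 1.22 ± 0.30, unadjusted p = 0.000735). Gramd1b, a sterol transporter between membranes, had a difference of -1.32 and then -0.61. With a negative interaction, Flt1, a receptor for vascular endothelial growth factor, had a difference of 0.23 untreated and -0.88 after DSS, and Guk1, guanylate kinase, one of 0.46 and -0.44. The olfactory receptor gene Olfr1347 (interaction -1.12 ± 0.25) and the genes Zfp101, Dkkl1 and Sstr4 completed the 8 of lowest p on that side. Zfp101 lay below 3.51, the level set by the filter on low values, in 2 of the 4 groups and Dkkl1 in 3, so no interaction is given for either. None of these passed the test.

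Read by gene list, most called macrophage, complement and Fc receptor genes had the smaller difference after DSS. Counts below are of list genes whose average subset difference passed the test, and 58.6% of all such genes had a smaller difference after DSS. That share was greater for larger differences, and of the called macrophage genes 6 had an average difference of 2 or more and 5 one of 1 to 2, so their counts are also to be read beside 87.5% and 61.1%. Of the 12 complement and Fc receptor genes, 4 and 8 were of these sizes, and of the 15 pattern recognition receptors 3 and 6. The difference was smaller in 16 of 17 macrophage genes, in 11 of 12 complement and Fc receptor genes and in 12 of 15 pattern recognition receptors. The lists share the C1q genes and others. At an unadjusted interaction p under 0.05, 5 of 23 tested macrophage genes were positive and 0 negative, as were 5 of 14 complement and Fc receptor genes, beside 3.64% of all genes in either direction. Of all called genes, 38.8% of those with an average difference of 2 or more and 12.3% of those at 1 to 2 reached it, so these counts are not to be read beside 3.64% alone. With the replicate block it was reached by 6 in each list, in either direction. Mrc1, the mannose receptor, had a difference of -2.59 untreated and -1.69 after DSS. Apoe, a lipid carrier, had one of -1.70 and -1.05, and Gpnmb, a glycoprotein of lysosomes, one of -2.99 and -1.92. The median over the macrophage list was -1.05 untreated and -0.78 after DSS, and over the complement and Fc list -1.93 and -1.54. Cfb, the complement factor B gene, was an exception at -2.41 in both conditions, as was Cfp, properdin, at -1.82 and -1.81.

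The dendritic cell lists were divided. In the cDC2 programme the difference was smaller in 13 of 15 genes, among them Mgl2, a lectin for galactose (-4.62 untreated and -3.80 after DSS), Zeb2, a transcription factor (-2.38 and -1.78), and the lectin Clec4a1 (-2.80 and -1.57). Of the 15, 9 had an average difference of 2 or more, where 87.5% of all called genes had a smaller difference after DSS. Of the 20 tested genes, 7 were positive and 2 negative at an unadjusted interaction p under 0.05, and 8 reached it with the replicate block. Without the block it was reached by 38.8% of all called genes at 2 or more, 12.3% of those at 1 to 2 and 3.64% of all genes tested. The 2 negative genes, Clec12a (2.43 untreated and 1.7 after DSS) and Cd1d1, were higher in CD103+CD11b- cells, so their differences were also smaller. Cd1d1 lay below 3.51 in both CD103-CD11b+ groups, so its differences are not given. The list's lectins Cd209a (-3.36 and -3.32) and Clec10a (-2.81 and -2.74) had near-equal differences in both conditions. The median over the list was -1.39 untreated and -1.51 after DSS, opposite in direction to the count, and its median interaction was 0.07.

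Of the 20 called cDC1 genes, 5 had an average difference of 2 or more, 10 of 1 to 2 and 5 under 1. Among all called genes of these sizes, 87.5%, 61.1% and 56.9% had a smaller difference after DSS. An unadjusted interaction p under 0.05 was reached by 38.8%, 12.3% and 5.62% of them. In the cDC1 programme the difference was smaller in 14 of 20 genes. At that p 5 were negative: Xcr1, Clec9a, Itgae, Naaa, a lysosomal amidase (2.72 untreated and 1.98 after DSS), and Btla, an inhibitory receptor (1.99 and 1.43). The others included the transcription factor genes Batf3, with 0.68 untreated and 0.88 after DSS, and Irf8, with 1.29 and 0.96, and the adhesion gene Cadm1, with 1.20 and 1.59. Gcsam, a signalling protein of germinal centre B cells, had a difference of 2.64 untreated and 3.14 after DSS. The list's median interaction was -0.25 while its median difference was 1.33 untreated and 1.43 after DSS.

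In other lists the larger difference was after DSS. Of the 11 called genes of the monocyte list, 4 had a smaller and 7 a larger difference after DSS, and the median over its 15 tested genes was -0.29 untreated and -0.58 after DSS. Ccr2, the chemokine receptor of blood monocytes, had a difference of -0.09 and -0.69, and Vcan, a matrix proteoglycan, one of -0.19 and -0.58. Hp, haptoglobin, lay below 3.51 in both untreated groups, so its untreated difference is not given. Outside that list, Clec7a, the receptor for fungal glucan, had a difference of -0.41 and -1.20, and Il33, an alarmin cytokine, one of 0.05 and -1.27.

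Genes of signalling between cells stood on both sides. Il12b, the subunit shared by interleukins 12 and 23, had a difference of 2.41 untreated and 1.59 after DSS, and Cxcl9, a chemokine induced by interferon gamma, one of 1.08 and 0.35. Cxcl14 had a difference of -1.92 and -0.98, and Ccl12, a ligand of CCR2, one of -1.11 and 0.24. Il18 had one of -0.53 and 0.36. Mmp13, a collagenase of the tissue repair list, had a difference of -3.14 untreated and -1.72 after DSS (interaction 1.42 ± 0.54, unadjusted p = 0.0167). Its CD103-CD11b+ arrays varied widely untreated, at 8.2, 10.45 and 9.18, against 8.95, 8.77 and 8.95 after DSS. Under changed settings the interaction of Mmp13 ran from 0.83 to 1.96. The difference was smaller after DSS in 9 of 11 inflammatory cytokine and enzyme genes, in 9 of 12 chemokine genes and in 8 of 11 tissue repair genes. Of these 11, 12 and 11 genes, 4, 1 and 3 had an average difference of 2 or more, where the share of all called genes was 87.5%.

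Several programmes held no gene with an unadjusted interaction p under 0.05 in the fit without the replicate block. Among them were the 22 type I interferon-stimulated genes, the 12 genes of MHC class II presentation, the 23 of the cell cycle and the 24 immediate-early and heat shock genes. Their median interactions were -0.05, 0.00, -0.04 and -0.06. With the block in limma, the cell cycle gene Rrm2, a subunit of ribonucleotide reductase, reached an unadjusted p of 0.0389. The called difference was smaller after DSS in 1 of 8 immediate-early and heat shock genes, 0 of 2 cell cycle genes, 4 of 10 interferon-gamma response genes, 2 of 6 common dendritic cell genes and 7 of 14 maturation genes. The median was 0.01 over 16 genes of MHC class I presentation and -0.08 over 21 genes of dendritic cell maturation. In all 28 lists, 0 of 452 tested genes passed the test for the interaction.

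**Figure D4:**
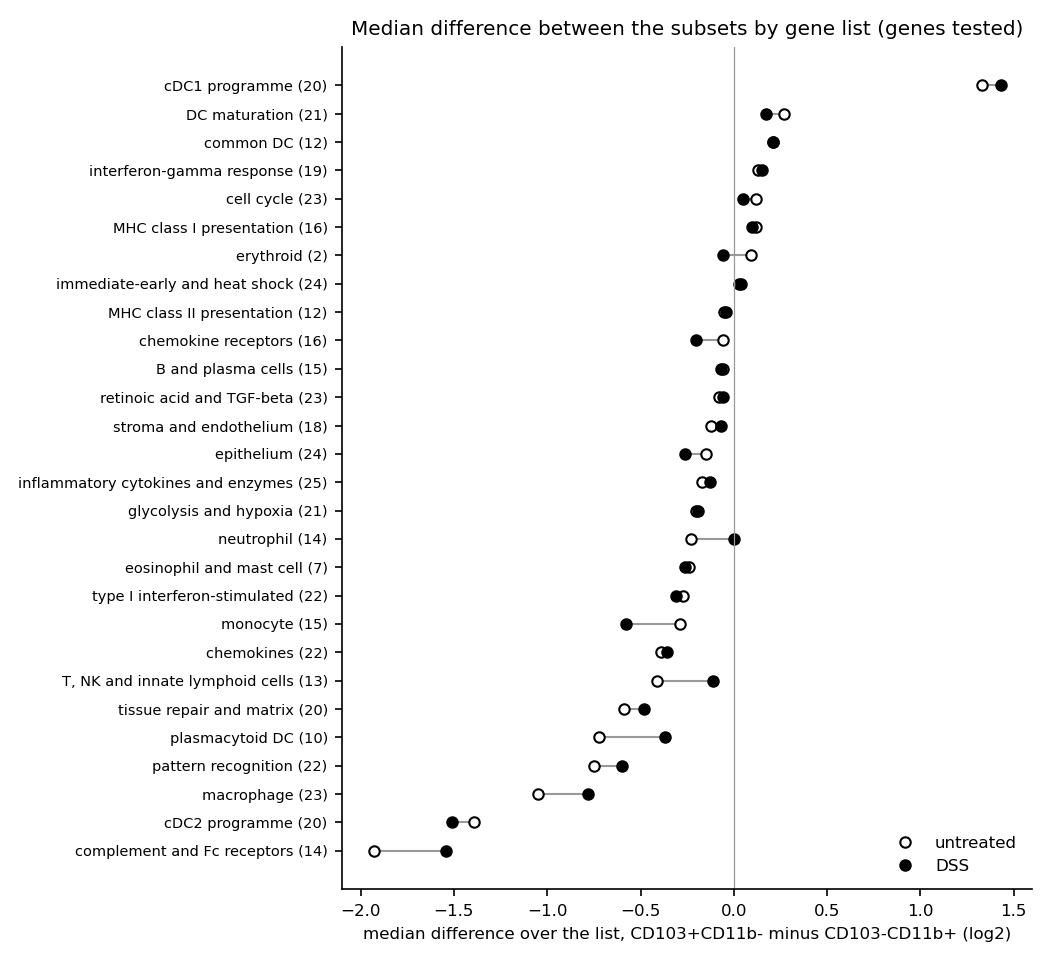
Median difference between CD103+CD11b- and CD103-CD11b+ cells (log2) over the tested genes of each of 28 lists, untreated (open) and after DSS (filled), with the number of genes in brackets. The complement and Fc receptor and the macrophage medians are nearer to 0 after DSS, the monocyte median is farther from 0, and the cDC1 and cDC2 medians are slightly farther from 0.

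The DSS changes within each subset show which side carried the single-gene results. In CD103+CD11b- cells 18 genes passed the test, 15 higher and 3 lower after DSS (0.129% of genes), and 852 had an unadjusted p under 0.05. In CD103-CD11b+ cells 14 passed, 10 higher and 4 lower (0.1%), and 1074 had an unadjusted p under 0.05. Of 28 genes in either, 4 passed in both, and 26 had the same sign in the other subset. The 4 were Inhba, Serpina3n and the Y-linked genes Eif2s3y and Uty. The 3 lower genes of CD103+CD11b- cells were Eif2s3y, Uty and Kdm5d, all of the Y chromosome. Inhba, the gene of the activin A chain, measured 5.28, 4.98 and 4.62 in untreated CD103+CD11b- cells and 6.5, 7.05 and 6.85 after DSS, and 8.08, 7.57 and 8.32 against 9.0, 9.55 and 9.77 in CD103-CD11b+ cells. It rose by 1.84 ± 0.24 and 1.45 ± 0.24 (adjusted p = 0.00106 and 0.017), with an interaction of 0.38 ± 0.33, and the second rise did not pass in 4 of 20 other settings (adjusted p up to 0.0978). The protease inhibitor gene Serpina3n rose by 1.45 ± 0.19 and 1.31 ± 0.19 (adjusted p = 0.00106 and 0.00606), with an interaction of 0.15 ± 0.26.

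Genes that passed only in CD103+CD11b- cells included, besides Pdia5, Sirpa, Lst1 and Fcgr3, the lectin Clec4e, a receptor for mycobacterial glycolipid. It measured 4.87, 5.64 and 4.66 untreated and 6.30, 6.95 and 7.23 after DSS in these cells, against 7.91, 8.09 and 7.36 and then 8.19, 8.30 and 8.76 in CD103-CD11b+ cells. It rose by 1.77 ± 0.29 (adjusted p = 0.0173), and its interaction was 1.14 ± 0.41 (unadjusted p = 0.0125). The related lectin gene Clec4d rose by 0.96 ± 0.16 (adjusted p = 0.0173), the chemokine gene Ccl6 by 1.09, the nicotinic acid receptor gene Hcar2 by 1.14, the prostaglandin synthase gene Ptgs2 by 0.75 and the transglutaminase gene Tgm2 by 1.03. Passing only in CD103-CD11b+ cells, besides Itgae and Clec9a, were a rise of Hdc, the enzyme of histamine synthesis, by 1.18, of Mfge8, a bridge to dying cells, by 0.92, of Procr, the protein C receptor, by 0.79 and of the arginine transporter gene Slc7a2 by 1.10. These rises did not pass in 4 to 13 of 20 other settings. The interaction, which is the test of such a difference, passed for none of them. In CD103+CD11b- cells Slc7a2 averaged 3.24 untreated and 3.43 after DSS, below the filter level of 3.51, so a change there could not be read.

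**Figure D5:**
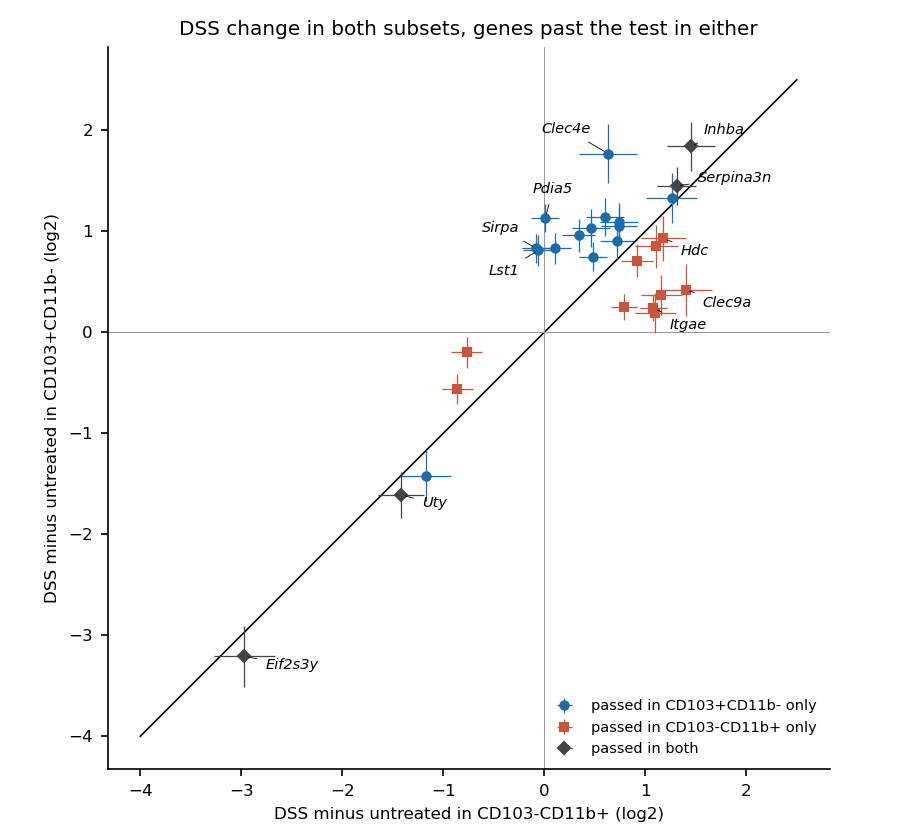
DSS minus untreated (log2, bars are standard errors) in CD103-CD11b+ (horizontal) and CD103+CD11b- cells (vertical) for the 28 genes past the test in either subset, with the line of equal change. Inhba, Serpina3n, Eif2s3y and Uty passed in both subsets, and Pdia5, Sirpa and Lst1 lie near 0 on the horizontal axis.

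The counts of DSS calls depended on single arrays. Leaving out 1 array at a time gave 5 to 18 calls in CD103+CD11b- cells, 5 to 9 of them without CD103+CD11b- replicate 1, 3, 4, 5 or 6. In CD103-CD11b+ cells it gave 29 calls without CD103-CD11b+ replicate 1, 5 to 7 without CD103-CD11b+ replicate 3, 4, 5 or 6, and 8 and 9 without CD103+CD11b- replicates 5 and 1. The calls of Pdia5, Itgae, Serpina3n and, in CD103+CD11b- cells, Inhba passed under every setting tried. Those of Sirpa, Lst1, Fcgr3, Clec4d, Clec4e and Clec9a were each lost without 1 or more single arrays, with adjusted p of at most 0.221.

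Transcripts of the sex chromosomes were examined in both subsets. Of 5 tested genes of the Y chromosome, 3 passed as lower after DSS: Eif2s3y measured 4.90 to 6.02 on the untreated and 2.10 to 2.44 on the DSS arrays, Uty 3.51 to 4.29 and 2.42 to 2.64, and Kdm5d 3.91 to 4.91 and 3.04 to 3.46, so that all 3 lay below the filter level of 3.51 after DSS. Xist measured 8.26 to 9.56 and 9.11 to 9.45. The untreated and DSS arrays thus differ in Y-linked transcripts as well as in treatment, and the part of this in the DSS changes was not tested.

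Markers of other cell types were measured beside the smaller differences. In CD103+CD11b- cells the array means of the 23 macrophage genes were 6.49 to 6.67 untreated and 6.88 to 7.0 after DSS, and those of the 20 cDC2 genes 5.59 to 5.74 and 5.87 to 5.88. In CD103-CD11b+ cells the 20 cDC1 genes were at 6.32 to 6.42 untreated and 6.62 to 6.70 after DSS. The 14 neutrophil genes were at 5.07 to 5.22 and 5.40 to 6.07 in CD103+CD11b- cells and at 5.43 to 5.76 and 5.82 to 6.48 in CD103-CD11b+ cells, with Ngp, Ltf and Padi4 at or below 3.51, the filter level, on all 12 arrays. The 7 eosinophil and mast cell genes were at 4.15 to 4.43 and 4.51 to 4.87, and at 4.24 to 4.69 and 4.85 to 5.09, with Epx, Prg2, Il5ra and Ms4a2 at or below that level. Retnlg was the only neutrophil gene to pass, rising by 1.33 ± 0.25 in CD103+CD11b- cells (adjusted p = 0.0413 in limma). That rise did not pass in 9 of 20 other settings, nor did the change of 1.26 ± 0.25 in CD103-CD11b+ cells (adjusted p = 0.0616). The median DSS change over the neutrophil list was 0.23 in CD103+CD11b- and 0.41 in CD103-CD11b+ cells. Over the eosinophil and mast cell list it was 0.52 and 0.60. The 24 epithelial genes were at 7.86 to 8.29 and 7.65 to 7.91, and at 8.09 to 8.47 and 7.79 to 8.33. The 13 genes of T, NK and innate lymphoid cells were at 5.66 to 5.75 untreated and 5.84 to 6.05 after DSS in CD103+CD11b- cells, and at 5.79 to 6.11 and 6.10 to 6.18 in CD103-CD11b+ cells. The 15 B and plasma cell genes were at 6.19 to 6.39 and 6.01 to 6.13, and at 6.39 to 6.47 and 6.20 to 6.43. The 10 plasmacytoid dendritic cell genes were at 5.08 to 5.10 and 5.05 to 5.28, and at 5.78 to 6.06 and 5.72 to 5.85. In CD103+CD11b- cells the arrays of the macrophage, cDC2, neutrophil, eosinophil and mast cell, lymphoid and B cell lists did not overlap between conditions. Lists that name no cell type did not overlap there either, such as chemokines (7.45 to 7.66 untreated, 7.71 to 7.86 after DSS) and MHC class I presentation (8.27 to 8.28, 8.44 to 8.53). The cDC1, monocyte, epithelial and plasmacytoid lists overlapped. In CD103-CD11b+ cells those of the cDC1, neutrophil and eosinophil and mast cell lists did not overlap, nor did the inflammatory cytokine and enzyme list (6.42 to 6.58, 6.68 to 6.82). A lack of overlap was thus not particular to cell type markers. The part of these cell types in the interaction was not tested.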

How the data were processed

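The deposited table holds log2 expression values, 1 per probe set and array, which the authors obtained with RMA, per the submitters' processing notes; its version is not given in the sources used here. Its quantile step removes any shift that nearly all genes of an array share. Per the labels, 5 ng of total RNA was amplified and 5.5 ug of the product labelled. Values ran from 1.07 to 13.16, with array medians of 3.99 to 4.09.

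Of 34760 probe sets, 21640 carried 1 gene symbol, 1321 several and 11799 none. Only the first were used, and 21553 of them matched the reference table (assembly GRCm38.p6, used for names and promoters). These belong to 19937 genes. Probe sets had to exceed the 40th percentile of all values (3.51) in at least 3 of 18 arrays, the one of highest mean stood for its gene, and this left 14003 genes. The files give no detection calls.

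All 18 arrays entered a single limma fit (version 3.58.1, under R 4.3.3) with a mean per group; the CD103+CD11b+ arrays add only to the estimate of the spread. Tests were two-sided, with Benjamini-Hochberg adjustment over all genes and a threshold of 0.05. Errors beside changes are standard errors. The scripts were tested on simulated data.

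Experiment numbers pair the subsets: across genes, residuals of arrays that share a number correlated at 0.15 to 0.32 in all 6 pairs, and those of the 12 other pairs at -0.23 to 0.01. The alternatives tried were 2 other normalizations, no filter and a stricter one (50th percentile), the mean of probe sets, the experiment number as a fixed or random block, the 12 arrays alone, another estimate of the spread, and leaving out each array.

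Members and gene lists were chosen with earlier results of these data known. Of 512 listed genes, 452 entered the test, and 45 lacked a usable probe set. Genes named are Itgae, Itgam and Itgax, the 8 of lowest interaction p each way, the largest called DSS changes (up to 8 each way and subset), the 6 highest and 6 lowest average differences, and in each list its DSS calls and the 3 of lowest interaction p. Other named genes (Cfb, Cfp, Batf3, Irf8, Cadm1, Gcsam, Naaa, Btla, Apoe, Gpnmb, Zeb2, Clec10a, Clec12a, Cd1d1, C1qc, Mfge8, Procr, Tgm2, Xist, Sst and the genes not closer after DSS) were chosen after their values were seen.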

Additional observations from a re-analysis of the deposited data

How the results depend on the processing

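The interaction had 0 calls under all 9 alternatives, with lowest adjusted p of 0.189 to 0.799 in limma. With the replicate block (experiment number) it had 0 calls and a lowest adjusted p of 0.245, and the block changed no other call beyond 1.5 times; DSS changes cannot be fitted with a fixed block. Leaving out single arrays gave 0 to 1 interaction calls. The 1 call came without DSS CD103-CD11b+ replicate 6: Sst, the hormone somatostatin, at -2.54 ± 0.32 with an adjusted p of 0.00459, named after its value was seen. The count of DSS calls in CD103-CD11b+ cells was 5 with the 12 arrays alone and 24 with an intensity trend and robust spread. Leaving out arrays gave 5 to 18 DSS calls in CD103+CD11b- cells, 5 to 29 in CD103-CD11b+ cells, 1053 to 1407 untreated and 912 to 1307 DSS subset calls, 2021 to 2279 average calls, a distance difference of -0.0746 to -0.0265, and 78.5% to 88% of the large differences smaller after DSS. That share was 70.8% (34 of 48 genes) where the genes were chosen by their DSS difference alone, a choice that favours larger differences after DSS, and 91.7% (99 of 108) by the untreated difference alone, which favours the opposite; both choices were added after seeing the data.

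Of 2408 values of 115 named genes under a changed setting, 2383 kept the direction of the interaction. The 25 that reversed were all in leave-one-out fits of 10 genes. Over all changed settings, alternatives and arrays left out together, the interaction ran from -0.11 to 0.23 for Itgax, -0.15 to 0.28 for Retnlg, -0.24 to 0.25 for Cd209a, -0.44 to 0.41 for P3h2 and -0.34 to 0.02 for Uty. It ran from -0.47 to 0.03 for Kdm5d, -0.52 to 0.04 for Eif2s3y, -0.05 to 0.62 for Bst2, -0.01 to 0.48 for Ccr3 and -0.33 to 0.07 for Cpa3. The cause of these shifts was not tested. Background correction could not be varied from RMA values, and 3 arrays a group limit the precision.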

Other observations

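The CD103+CD11b+ subset, outside the comparison, gives a further level for the genes of large difference. The 53 genes lower in CD103+CD11b- cells averaged 7.11 to 7.30 on the untreated and 7.12 to 7.21 on the DSS arrays of CD103+CD11b+ cells, between the other subsets, and the conditions overlapped. The 27 genes higher in CD103+CD11b- cells averaged 5.52 to 5.68 and 5.68 to 5.87 there, nearer to the CD103-CD11b+ cells. The interaction of CD103+CD11b- against CD103+CD11b+ cells had 0 calls in limma (lowest adjusted p = 0.0979), with 676 genes at an unadjusted p under 0.05, 555 higher and 121 lower. That of CD103+CD11b+ against CD103-CD11b+ cells had 0 calls (lowest adjusted p = 0.644), with 778 such genes, 140 higher and 638 lower. These comparisons share arrays with the one above.

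Of the 80 genes with an average difference of 2 or more, the 10 that were not closer after DSS were P3h2, Tssc4, Cd207, Gcsam, Ppef2, Bcl2l14, Zc3h12c, Cfb, Trem1 and Hamp. Cd207, which encodes the lectin langerin, had a difference of 2.71 untreated and 3.28 after DSS. Hamp, which encodes the iron hormone hepcidin, had one of -2.59 and -3.23. Bcl2l14, a relative of BCL2, had one of 1.84 and 2.47. None of the 10 interactions reached an unadjusted p under 0.05 without the replicate block, and 2 did with it, those of Cd207 and Bcl2l14.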
